A study of Homo sapiens with 6 samples.

Results

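The genes described here encode 10 collagen-modifying enzymes, their partners and collagen chaperones of the endoplasmic reticulum. They were chosen by symbol from the 42886 gene symbols kept from 6 prostate cancer cell line libraries. They are FKBP10, PLOD1, PLOD2, PLOD3, P4HA1, P4HA2, LEPRE1, CRTAP, SERPINH1 and PPIB. All 10 were found, and all 10 were among the 16230 genes whose mean was at least 1 scaled FPKM (FPKM, a count corrected for gene length and library total, divided by a library factor) and which were tested. The choice used measured values: lower FKBP10 in the resistant line of all 3 pairs is part of how the set was defined, so the members' changes between resistant and sensitive lines are given as a description, without a test.

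RNA was sequenced from 3 castration sensitive prostate cancer cell lines, LnCaP, VCaP and LAPC4, and from the castration resistant line that goes with each (LnCaP-abl, VCaP-CR, LAPC4-CR), with 1 library per line. LnCaP and LAPC4 were grown in RPMI with 10% FBS and VCaP in DMEM with 10% FBS, whereas the 3 resistant lines were grown in RPMI with 10% charcoal-stripped FBS and B27 supplement. No line received any other treatment, and no genetic change or drug is named in the labels. Culture medium and castration state differ together in every pair, so their parts in a difference cannot be told apart. The base medium (DMEM or RPMI) differed in the VCaP pair alone. Each line stands for itself only: there was no second culture of any line, and differences within a pair carry counting error but no replicate error. The libraries held 8661337 to 22433655 counts.

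Fibrillar collagen is modified while its chains are still unfolded in the endoplasmic reticulum. Prolyl 4-hydroxylases, made of an alpha subunit (P4HA1, P4HA2) and the beta subunit P4HB, hydroxylate proline residues so that the triple helix is stable at body temperature, and lysyl hydroxylases (PLOD1, PLOD2, PLOD3) hydroxylate the lysines that later carry sugars and cross-links. LEPRE1 (prolyl 3-hydroxylase), CRTAP and the cyclophilin PPIB form the complex that 3-hydroxylates selected prolines, FKBP10 (FKBP65) is a peptidyl-prolyl isomerase and collagen chaperone that is linked to PLOD2-dependent hydroxylation of telopeptide lysines, and SERPINH1 (HSP47) is a chaperone that binds the folded procollagen helix. In carcinomas most fibrillar collagen is made by stromal fibroblasts, while tumour cells also express several of these enzymes, and P4HA1 and PLOD2 are known hypoxia-inducible genes.

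RefSeq promoter sequences (GRCh38.p14) were found for 9 of the 10 members, LEPRE1 under its current symbol P3H1, and the 250 bases before each gene start were searched on both strands. The promoters of PLOD2 and P4HA1 are shown because these members were at least 2-fold higher in the resistant line of the VCaP pair and at least 2-fold lower in that of the LAPC4 pair, with every ACGTG in capitals (CACGT is the same motif on the other strand). The SERPINH1 promoter is shown because SERPINH1 was the member at least 2-fold higher in LnCaP-abl, with its match to the heat shock element in capitals. Each runs 5′ to 3′ on the strand of its gene and ends at the base before the gene start.
PLOD2, chr3:146161185-146161434, minus strand: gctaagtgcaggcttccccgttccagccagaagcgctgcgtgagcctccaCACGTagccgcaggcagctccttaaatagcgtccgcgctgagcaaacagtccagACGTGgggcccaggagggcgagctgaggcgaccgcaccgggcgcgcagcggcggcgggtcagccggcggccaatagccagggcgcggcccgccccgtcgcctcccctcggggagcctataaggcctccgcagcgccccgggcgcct
P4HA1, chr10:73096867-73097116, minus strand: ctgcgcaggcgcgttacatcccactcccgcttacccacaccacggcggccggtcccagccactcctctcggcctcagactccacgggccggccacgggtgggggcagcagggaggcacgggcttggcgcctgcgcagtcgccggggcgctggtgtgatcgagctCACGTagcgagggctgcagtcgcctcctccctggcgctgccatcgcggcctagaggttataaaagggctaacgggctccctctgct
SERPINH1, chr11:75562003-75562252, plus strand: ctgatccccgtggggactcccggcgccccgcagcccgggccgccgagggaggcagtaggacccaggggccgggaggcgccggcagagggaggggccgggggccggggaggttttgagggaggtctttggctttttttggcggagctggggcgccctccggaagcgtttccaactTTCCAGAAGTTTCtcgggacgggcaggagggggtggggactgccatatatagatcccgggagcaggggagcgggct

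ACGTG, the core letters of the hypoxia response element, was present in 3 of the 9 promoters: in PLOD2 with first bases at -200 and -146 from the gene start, in P4HA1 at -86 and in PPIB at -185. It was present in 18.5% of 35116 RefSeq promoter windows of the same length. The related core GCGTG was present in 5 of the 9, against 32.2% of all windows. The endoplasmic reticulum stress element (CCAAT and CCACG with 9 bases of any kind between them) was found in 0 of the 9 and in 0.074% of all windows. The heat shock element (TTC, GAA and TTC, each 2 bases of any kind apart), a motif chosen after the values were seen, was found in SERPINH1 at -76 and in 0.441% of all windows. These motifs can overlap one another, and a match describes letters in a window, not a bound site.

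Per unit of transcript length, PPIB was the most abundant member in all 6 libraries, between 105.1 and 228.3 scaled FPKM. The plot of levels by library shows how unequally the rest were spread. All 10 are annotated as protein-coding, and the positions below are their gene spans in hg18 as deposited. PLOD3, CRTAP and PPIB differed by 2.01-fold, 2.37-fold and 2.17-fold between their lowest and highest library, whereas PLOD2 differed by 16.4-fold, SERPINH1 by 18.4-fold and FKBP10 by 123-fold. FKBP10 ranked 2nd of the 10 by scaled FPKM in LnCaP, 3rd in VCaP and 5th in LAPC4, but 9th in LnCaP-abl and in LAPC4-CR and 4th in VCaP-CR.

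**Figure D1:**
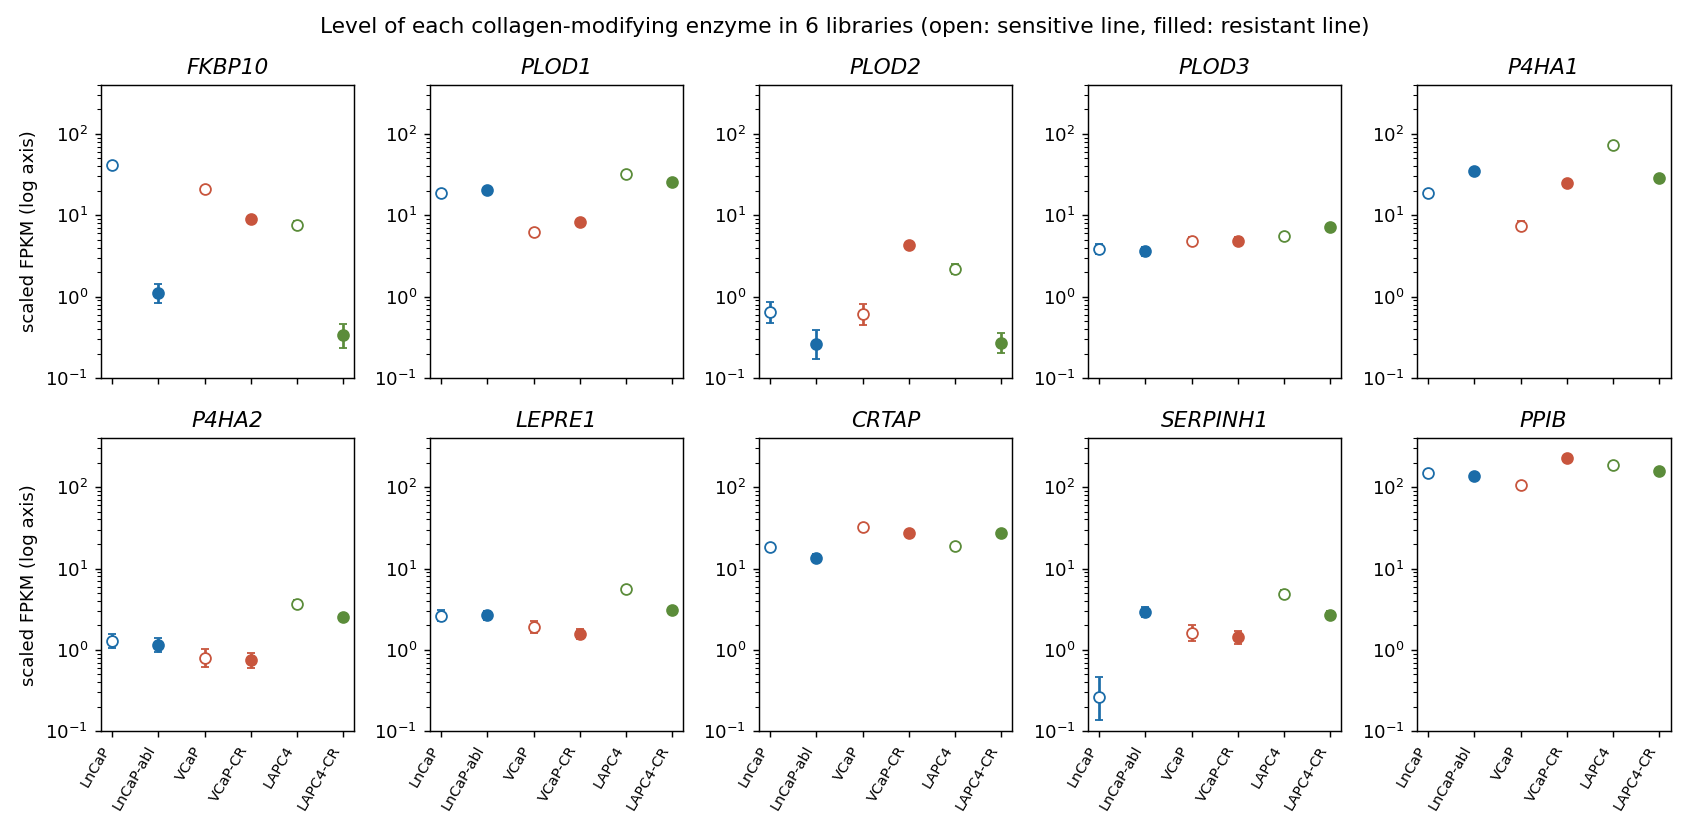
Level of each of the 10 members in the 6 libraries, in scaled FPKM on a log axis; open points are sensitive lines, filled points resistant lines, and bars are exact 95% Poisson intervals that cover counting error only. FKBP10 runs from 41.3 in LnCaP to 0.337 in LAPC4-CR, while PPIB stays between 105.1 and 228.3.

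FKBP10 (ENSG00000141756, chr17:37222488-37232991 in hg18) had 1645 counts in LnCaP against 56 in LnCaP-abl, 898 in VCaP against 625 in VCaP-CR, and 425 in LAPC4 against 36 in LAPC4-CR. In scaled FPKM its levels were 41.3 and 1.10 for LnCaP and its resistant line, 21.4 and 9.07 for VCaP and its own, and 7.66 and 0.337 for LAPC4 and its own. In a bulk library, fewer expressing cells and less RNA per cell cannot be told apart. The resistant line was the lower one in each pair, but the groups overlapped, since VCaP-CR was above LAPC4. The ratio was 37.5-fold lower in LnCaP-abl (95% counting interval 28.7 to 49.9), 22.7-fold lower in LAPC4-CR (16.2 to 32.9) and 2.36-fold lower in VCaP-CR (2.12 to 2.61). On log2(scaled FPKM + 1) the changes were -4.33, -2.70 and -1.15, with a mean over the 3 pairs of -2.73 ± 1.59 (SD, n = 3 pairs). The counting intervals of the VCaP ratio and of the other 2 ratios do not overlap. Of the 16230 genes, 16 were at least 2-fold lower in the resistant line of all 3 pairs (0.0986%), and FKBP10 is 1 of them by its choice. With a pseudocount of 5 its VCaP change was -0.91, under 2-fold.

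The level left in LAPC4-CR was at the height of genes that these cells are not known to use. Over 8 leukocyte and endothelial marker genes, the median level was 0.212 to 0.580 scaled FPKM across the 6 libraries, and it was 0.359 in LAPC4-CR, where FKBP10 was 0.337. In LnCaP-abl the same median was 0.248 and the 8 genes ranged from 0.0864 to 1.99, with FKBP10 at 1.10. FKBP10 was therefore near the median of those genes in LAPC4-CR. In LnCaP-abl it was within their range only through CD68, at 1.99. The next highest marker there was CD14 at 0.448, below FKBP10.

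Counts of genes at least 2-fold higher or lower use the change on log2(scaled FPKM + 1), with a size of at least 1, which is stricter for low genes than the ratio of levels. Among the members, 1 was at least 2-fold higher in LnCaP-abl than in LnCaP and 1 at least 2-fold lower, against 6.24% and 6.19% of all tested genes. By the ratio alone PLOD2 was also 2.45-fold lower in LnCaP-abl (1.46 to 4.19), from 46 and 24 counts. In the VCaP pair 3 members were at least 2-fold higher in VCaP-CR and 1 lower, against 2.36% and 2.03% of all genes. In the LAPC4 pair 0 members were at least 2-fold higher in LAPC4-CR and 3 were lower, against 5.22% and 5.27%. The contrast was used in the choice of the set, so nothing is read from these shares. The members' median change was -0.08, -0.02 and -0.54 for LnCaP-abl, VCaP-CR and LAPC4-CR in turn, beside -0.01, -0.01 and -0.02 over all tested genes. Lower values in the resistant line of all 3 pairs were seen for 2 members, FKBP10 and P4HA2 (16.7% of all genes). Higher values in all 3 were seen for 0 (15.1% of all genes). With TMM factors the VCaP change of P4HA2 is 0.0052. The P4HA2 ratio of resistant to sensitive line was within counting error of no change in 2 pairs. It was 0.887 in the LnCaP pair (0.670 to 1.18) and 0.925 in the VCaP pair (0.667 to 1.29).

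**Figure D2:**
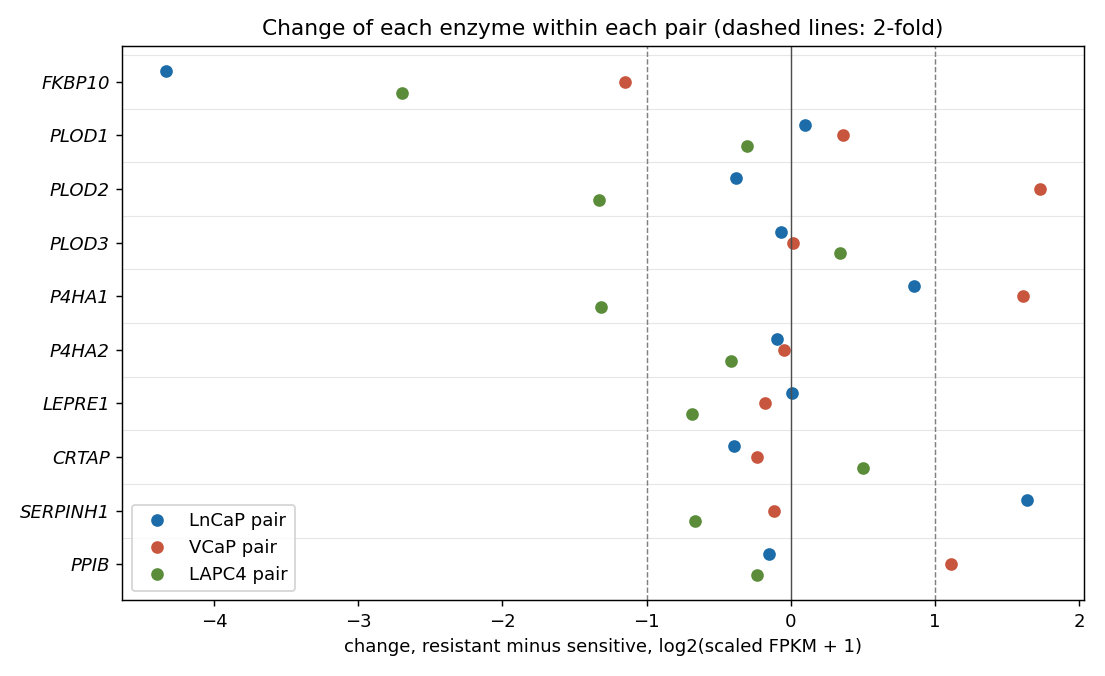
Change of each member within each pair, resistant minus sensitive, on the log2(scaled FPKM + 1) scale; each point is 1 pair and dashed lines mark 2-fold. FKBP10 lies left of the lower dashed line in all 3 pairs, while PLOD2 and P4HA1 lie beyond opposite dashed lines in the VCaP and LAPC4 pairs.

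Among the lysyl hydroxylases, PLOD2 (ENSG00000152952, chr3:147269917-147364130 in hg18), the enzyme that acts on telopeptide lysines, had opposite changes in the VCaP and LAPC4 pairs. It had 46 counts in LnCaP against 24 in LnCaP-abl, 46 in VCaP against 534 in VCaP-CR, and 218 in LAPC4 against 52 in LAPC4-CR. The corresponding scaled FPKM were 0.650 and 0.265, 0.615 and 4.35, and 2.21 and 0.274. PLOD2 thus exceeded 1 scaled FPKM in VCaP-CR and LAPC4 alone, and its levels in the other 4 libraries were within the range of the leukocyte and endothelial markers there. In VCaP only CD68 lay above it, at 0.763, with CD14 the next marker at 0.325. It was 7.08-fold higher in VCaP-CR than in VCaP (5.23 to 9.79) and 8.07-fold lower in LAPC4-CR than in LAPC4 (5.94 to 11.1). The changes of 1.73 and -1.33 on the log2 scale became 0.74 and -0.45 with a pseudocount of 5, so both PLOD2 calls of 2-fold depend on the pseudocount.

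PLOD1 (ENSG00000083444, chr1:11916849-11958186), which hydroxylates lysines of the helix, was the main lysyl hydroxylase per length in every library. LnCaP had 19.1 and LnCaP-abl 20.5 scaled FPKM, VCaP 6.16 and VCaP-CR 8.22, LAPC4 32.1 and LAPC4-CR 25.8. Its changes within the pairs were small, at 0.10, 0.36 and -0.30 on the log2 scale. PLOD3 (ENSG00000106397, chr7:100635978-100648421), which also transfers glucose and galactose to hydroxylysine, had the narrowest range of the 10. Its levels were 3.84 and 3.62, 4.83 and 4.90, and 5.51 and 7.26 scaled FPKM in the same order. PLOD3 overlaps ZNHIT1, which reached 2097 counts, and whether counting used the strand is not given in the sources used here, so reads from the shared stretch may be split between them.

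The make-up of the lysyl hydroxylase family therefore differed between lines. PLOD1 gave 80.9% and 84.1% of the family's summed FPKM in LnCaP and LnCaP-abl and 80.6% and 77.4% in LAPC4 and LAPC4-CR, but 53.1% in VCaP and 47.0% in VCaP-CR. PLOD3 was the larger remainder, with 41.6% in VCaP and 13.9% in LAPC4. PLOD2 gave 5.30% in VCaP against 24.9% in VCaP-CR, and 5.55% in LAPC4 against 0.820% in LAPC4-CR. In VCaP-CR PLOD2 came nearest to PLOD3, whose share there was 28.0%. By counts, which are not corrected for gene length, this order was reversed, with 31.75% for PLOD2 and 26.52% for PLOD3.

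Among the prolyl 4-hydroxylase subunits, P4HA1 (ENSG00000122884, chr10:74436981-74526738 in hg18), the main catalytic subunit, also had opposite changes in the VCaP and LAPC4 pairs. It had 553 counts in LnCaP against 1307 in LnCaP-abl, 233 in VCaP against 1270 in VCaP-CR, and 2991 in LAPC4 against 2269 in LAPC4-CR. In scaled FPKM these were 18.7 and 34.7, 7.48 and 24.9, and 72.7 and 28.6. The sensitive lines spanned 7.48 to 72.7 and the resistant lines lay between 24.9 and 34.7, so the 3 resistant lines were closer together than their parents. P4HA1 was 1.85-fold higher in LnCaP-abl (1.67 to 2.05), 3.32-fold higher in VCaP-CR (2.89 to 3.84) and 2.54-fold lower in LAPC4-CR (2.40 to 2.68). Of all tested genes, 42 were at least 2-fold higher in VCaP-CR and at least 2-fold lower in LAPC4-CR (0.259%), and 2 of the members, PLOD2 and P4HA1, are among them. With a pseudocount of 5 the P4HA1 changes were 1.26 and -1.21, still past 2-fold.

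P4HA2 (ENSG00000072682, chr5:131555430-131658907), the second alpha subunit, was expressed at 1.30 and 1.15 scaled FPKM in LnCaP and LnCaP-abl, 0.804 and 0.744 in VCaP and VCaP-CR, and 3.67 and 2.51 in LAPC4 and LAPC4-CR. Both LAPC4 lines were above the other 4 libraries. Its changes of -0.10, -0.05 and -0.41 were each under 2-fold. P4HA1 supplied between 86.8% and 95.9% of the summed FPKM of P4HA1, P4HA2 and P4HA3 in the 6 libraries, and P4HA2 between 2.87% and 9.34%. P4HA3 gave 0.930% to 3.85%. By counts, not corrected for gene length, the share of P4HA2 was larger, from 6.99% in VCaP-CR to 20.65% in VCaP.

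The beta subunit P4HB, which is also the protein disulfide isomerase PDIA1, was picked out after its values were seen and did not follow P4HA1. LnCaP had 20.3 and LnCaP-abl 17.4 scaled FPKM of P4HB, VCaP 7.17 and VCaP-CR 24.5, LAPC4 25.4 and LAPC4-CR 63.5. P4HB and P4HA1 were both higher in VCaP-CR than in VCaP, whereas in the LAPC4 pair P4HB was 2.50-fold higher and P4HA1 2.54-fold lower in the resistant line. The ratio of P4HB to the summed alpha subunits was 1.00 for LnCaP against 0.477 for LnCaP-abl, 0.832 for VCaP against 0.944 for VCaP-CR, and 0.329 for LAPC4 against 2.01 for LAPC4-CR. The LAPC4 pair held both the lowest and the highest of these ratios.

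**Figure D3:**
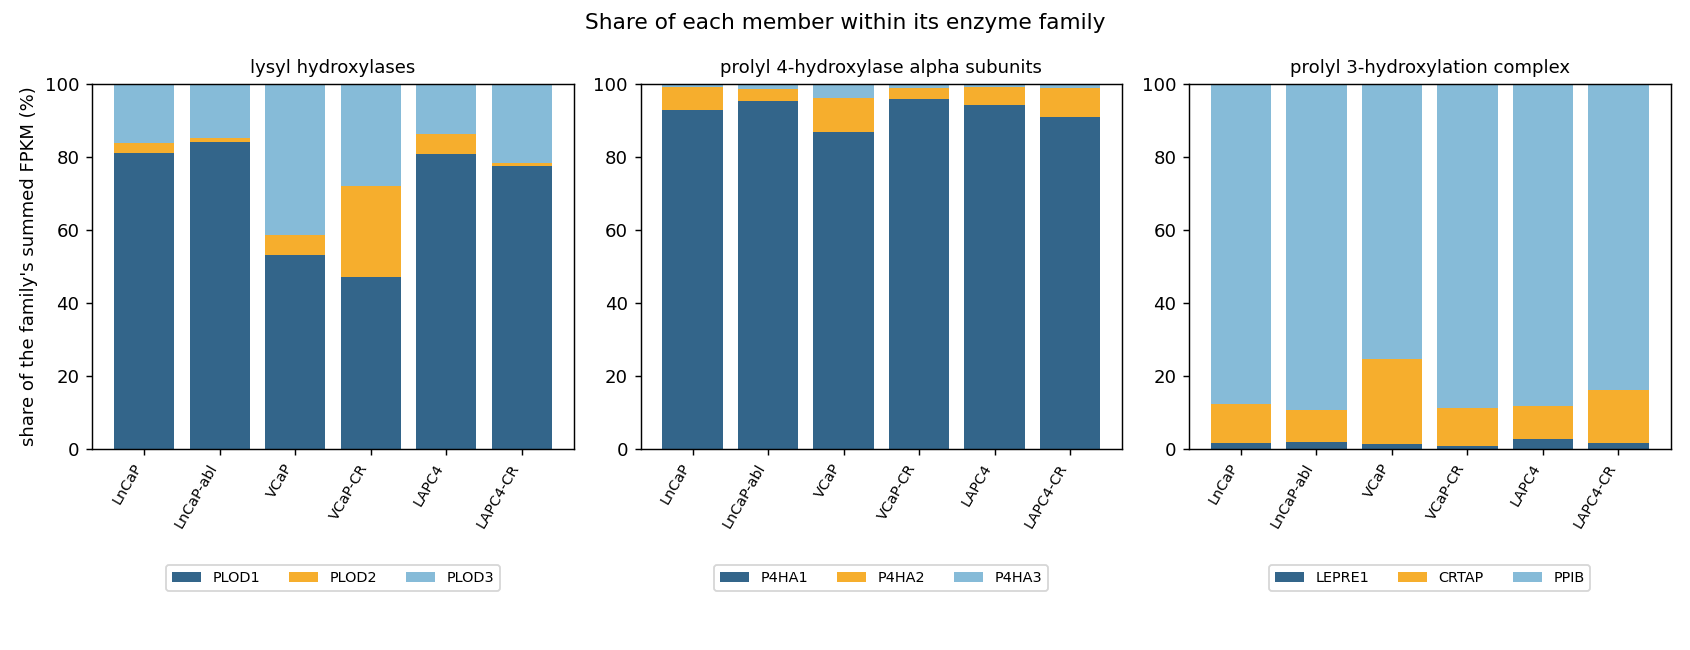
Share of each gene in the summed FPKM of its enzyme family in each library, in percent, for the lysyl hydroxylases, the prolyl 4-hydroxylase alpha subunits and the prolyl 3-hydroxylation complex. PLOD1 holds 80.9% of its family in LnCaP but 53.1% in VCaP, and PLOD2 reaches 24.9% in VCaP-CR.

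Within the prolyl 3-hydroxylation complex the 3 genes had different patterns. LEPRE1 (ENSG00000117385, chr1:42984593-43005342), the catalytic subunit, was expressed at 2.63 and 2.65 scaled FPKM in LnCaP and LnCaP-abl, 1.92 and 1.58 in VCaP and VCaP-CR, and 5.63 and 3.13 in LAPC4 and LAPC4-CR. CRTAP (ENSG00000170275, chr3:33130475-33160157), its non-catalytic partner, was expressed at 18.2 and 13.6, 32.3 and 27.3, and 18.9 and 27.1 scaled FPKM. In the LAPC4 pair LEPRE1 was lower and CRTAP higher in the resistant line, with changes of -0.68 and 0.50 on the log2 scale. CRTAP exceeded LEPRE1 per length by 3.35-fold in LAPC4 and by 17.3-fold in VCaP-CR, the extremes of the 6 libraries.

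PPIB (ENSG00000166794, chr15:62235064-62242457), the cyclophilin B of the complex and a general isomerase of the secretory pathway, had 1510 counts in LnCaP against 1738 in LnCaP-abl, 1111 in VCaP against 3959 in VCaP-CR, and 2608 in LAPC4 against 4263 in LAPC4-CR. Its levels were 150.8 and 135.9, 105.1 and 228.3, and 186.8 and 158.6 scaled FPKM. PPIB went from its lowest level, in VCaP, to its highest, in VCaP-CR, a 2.17-fold difference (2.03 to 2.33), while the other 2 pairs differed by -0.15 and -0.24 on the log2 scale. PPIB overlaps SNX22, which reached 700 counts, so some reads may be shared.

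SERPINH1 (ENSG00000149257, chr11:74950749-74961476 in hg18), the collagen chaperone HSP47, had 12 counts in LnCaP against 170 in LnCaP-abl, 78 in VCaP against 112 in VCaP-CR, and 308 in LAPC4 against 329 in LAPC4-CR. Its levels were 0.264 and 2.92 scaled FPKM, 1.62 and 1.42, and 4.85 and 2.69. LnCaP was the library with the lowest SERPINH1, below all 8 leukocyte and endothelial markers there (lowest 0.337, median 0.580). LnCaP-abl was 11.1-fold higher (6.19 to 21.9), a ratio that starts from under that range. SERPINH1 and FKBP10, both collagen chaperones, thus changed by at least 2-fold in opposite directions in the LnCaP pair, although with a pseudocount of 5 the change of SERPINH1 was 0.59.

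Differences among the 3 parental lines played no part in choosing the set, and were therefore tested. VCaP was the only line grown in DMEM, so in that library lineage and base medium cannot be told apart. With the sensitive and the resistant line of a name taken as 2 libraries of 1 lineage and the state kept as a term, edgeR's quasi-likelihood F test called 2066 of 16230 genes at a Benjamini-Hochberg adjusted p under 5% (12.7%). It called 2 of the 10 members, PLOD1 (adjusted p = 0.0259) and P4HA2 (adjusted p = 0.0305). PLOD1 had a geometric mean of 28.7 scaled FPKM in the LAPC4 lines, 19.8 in the LnCaP lines and 7.11 in the VCaP lines. P4HA2 had geometric means of 3.04, 1.23 and 0.773 in the same order.

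The LAPC4 lines exceeded the VCaP lines by 2.02 ± 0.33 (SE) on the log2 scale for PLOD1 (edgeR adjusted p = 0.0152) and by 1.98 ± 0.36 for P4HA2 (edgeR adjusted p = 0.0208). These were the members called in that contrast, where 12.6% of all genes were called. VCaP against LnCaP called 0 members (5.98% of all genes) and LAPC4 against LnCaP 0 (3.11%), so neighbours in either order did not pass the edgeR threshold. For PLOD1 the VCaP lines differed from the LnCaP lines by -1.45 ± 0.32 (SE; edgeR adjusted p = 0.0509) and the LAPC4 lines from the LnCaP lines by 0.57 ± 0.31 (edgeR adjusted p = 0.368). For P4HA2 the LAPC4 lines differed from the LnCaP lines by 1.34 ± 0.35 (SE; edgeR adjusted p = 0.103). DESeq2 called VCaP against LnCaP for PLOD1 (adjusted p = 0.00334) and LAPC4 against LnCaP for P4HA2 (adjusted p = 0.0235). Both lineage calls rest on the VCaP libraries: without VCaP the edgeR adjusted p was 0.178 for PLOD1 and 0.129 for P4HA2, and without VCaP-CR 0.092 and 0.111. The call of P4HA2 was also lost without LAPC4 (0.113) and without LAPC4-CR (0.0584).

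The other 8 members did not pass this edgeR test with all 6 libraries and the filter at a mean of 1 scaled FPKM. FKBP10 was highest in the VCaP lines by geometric mean (13.9 scaled FPKM), against 6.75 in the LnCaP lines and 1.61 in the LAPC4 lines (edgeR adjusted p = 0.112). Over the alternatives its adjusted p ran from 0.00148 to 0.536 and was under 5% in 5 of 13, with DESeq2 (0.00556), without a filter on low values (0.00148) and in edgeR without LnCaP (0.035), LnCaP-abl (0.0482) or VCaP (0.00314). The call for FKBP10 thus depends on the setting, and its 2 libraries of each lineage differ by the change used to choose the set. Leaving out 1 library also brought SERPINH1 (without LnCaP-abl, 0.0106), PLOD2 (without VCaP, 0.0116) and P4HA1 (without LAPC4-CR, 0.011; also without a filter, 0.0351) under an edgeR adjusted p of 5%. LEPRE1 had the same lineage order as PLOD1 and P4HA2, with 4.20, 2.64 and 1.74 in the LAPC4, LnCaP and VCaP lines (edgeR adjusted p = 0.112). PPIB had the largest adjusted p of the 10 (0.841), with geometric means of 143.2 to 172.1 scaled FPKM. The p-values measure the spread between the 2 lines of each lineage after the common effect of state, not between repeated cultures.

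The genomic neighbours of FKBP10 had smaller changes than FKBP10 itself. FKBP10 was chosen with its fall known and the neighbours were not, so nothing is read from this difference in size. LEPREL4 (SC65), a non-enzymatic relative of LEPRE1, ends 0.11 kb from FKBP10 in the deposited coordinates, and had 10.8 scaled FPKM in LnCaP against 7.27 in LnCaP-abl, 6.65 in VCaP against 4.76 in VCaP-CR, and 8.89 in LAPC4 against 4.59 in LAPC4-CR. LEPREL4 was thus lower in the resistant line of all 3 pairs, as FKBP10 was, with changes of -0.51, -0.41 and -0.82. On the other side NT5C3L, 1.87 kb away, had changes of -0.39, -0.17 and -0.34, and KLHL11, 25.3 kb away, had changes of 0.14, 0.17 and 0.42. GAST, HAP1 and KLHL10 were under the mean level of 1 scaled FPKM. On the log2(scaled FPKM + 1) scale every change of these 6 neighbours was under 1 in size. By the ratio of levels HAP1 was 2.23-fold lower in LnCaP-abl (1.17 to 4.42), and GAST had 1 to 3 counts in every library.

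The genes whose pattern was most like that of FKBP10 were taken by Pearson's r of log2(scaled FPKM + 1) over the 6 libraries, among 6396 protein-coding genes that averaged 5 scaled FPKM or more. They were AP001816.1 (r = 0.984), FKBP5 (r = 0.983), SLC43A1 (r = 0.975), STOML2 (r = 0.973) and NRARP (r = 0.964), and 9 genes reached 0.95. These are 6 points that share libraries and depth, and the values are a description. SLC43A1, an amino acid transporter, had 17.6 scaled FPKM in LnCaP against 0.215 in LnCaP-abl, 8.30 in VCaP against 3.60 in VCaP-CR, and 5.85 in LAPC4 against 0.387 in LAPC4-CR. FKBP5, a cytosolic FK506-binding co-chaperone known as an androgen receptor target, had 10.8 and 2.44, 7.03 and 5.39, and 6.39 and 1.93. Both were least reduced in VCaP-CR, as FKBP10 was, but they were picked for their likeness to FKBP10. Nothing is therefore read from this shared order. STOML2, a mitochondrial membrane protein, had smaller changes, of -0.95, -0.23 and -0.37.

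**Figure D4:**
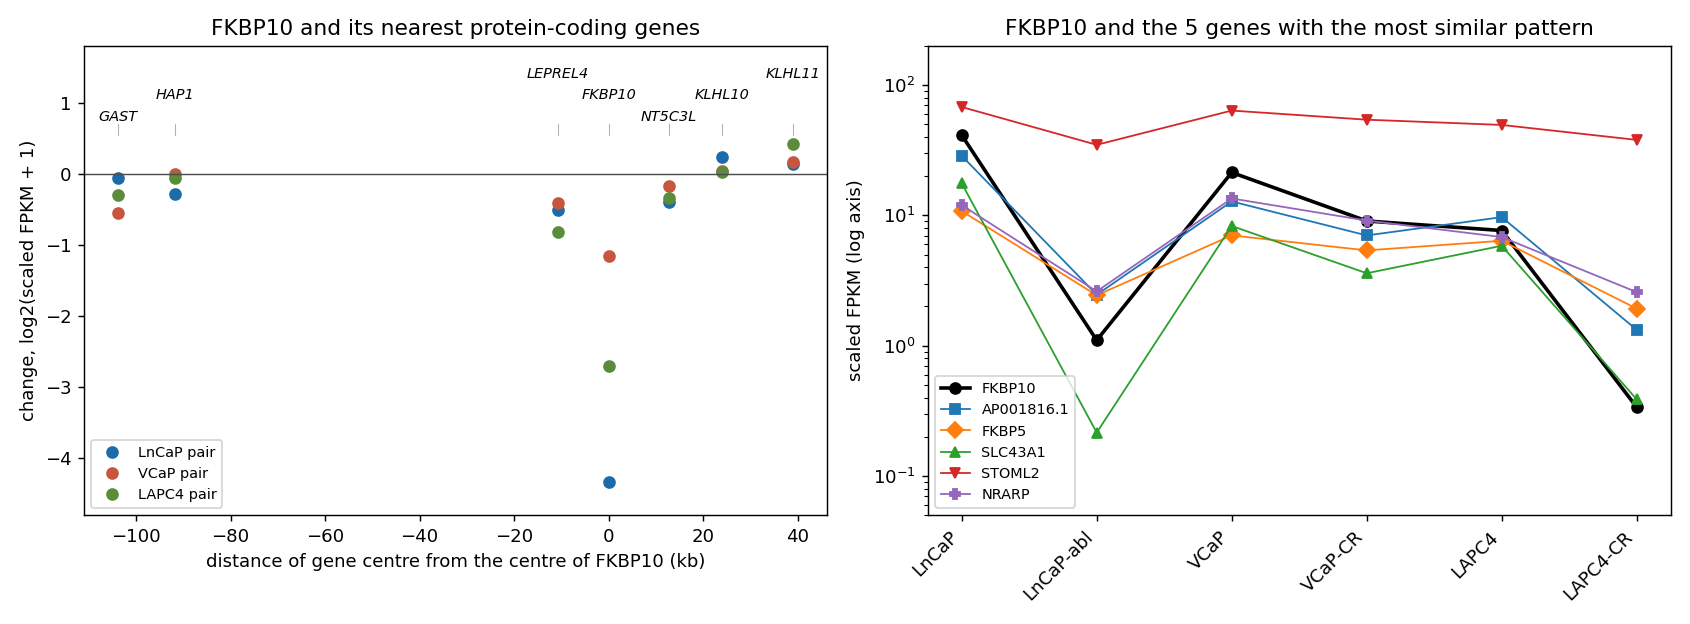
Left, change of FKBP10 and its 3 nearest protein-coding genes on each side within each pair on the log2(scaled FPKM + 1) scale, against the distance between gene centres in kb. Right, levels of FKBP10 and the 5 genes with the highest r in the 6 libraries, in scaled FPKM on a log axis, with lines joining the points of a gene; FKBP10 runs from 41.3 to 0.337 and STOML2 from 68.0 to 34.8.

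Genes around the members were followed in 6 lists, and tested for the state with the parental line as a block. edgeR called 0 genes higher and 0 lower among all 16230 at an adjusted p under 5% (0.0% each), with 727 higher and 549 lower at an unadjusted p under 0.05 (4.48% and 3.38%). DESeq2 called 82 higher and 55 lower, and limma 0 and 0. No list gene was therefore called by edgeR, and the values that follow describe the pairs.

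Of 14 other genes of collagen modification, folding and export, 11 were tested, 0 were called in either direction by edgeR (smallest adjusted p = 0.591) and 3 higher and 1 lower had an unadjusted p under 0.05. DESeq2 called 1 higher. The list's median changes were -0.02, -0.03 and 0.16 for LnCaP-abl, VCaP-CR and LAPC4-CR. SEC24D, a coat protein that carries procollagen out of the endoplasmic reticulum, was higher in the resistant line of each pair, with changes of 0.59, 1.05 and 1.21. PDIA3, an oxidoreductase, had changes of 0.19, 1.49 and 0.59. GLT25D1, which adds galactose to hydroxylysine, had changes of -0.76, -0.17 and -0.31. LEPREL1, the prolyl 3-hydroxylase 2, was picked out after its values were seen: its levels were 0.674 and 4.03, 2.37 and 0.768, and 9.55 and 0.258 scaled FPKM. LEPREL1 was thus 5.97-fold higher in LnCaP-abl (4.19 to 8.76) and 37.0-fold lower in LAPC4-CR (26.4 to 53.2), whereas LEPRE1 changed by less than 2-fold in both.

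Of 40 collagen chains, 29 were under 1 scaled FPKM in every library and 6 were tested, so most of the possible substrates of the members lay under that level. COL1A1, COL1A2 and COL3A1, the chains of the major fibrillar collagens, reached at most 0.699, 0.712 and 0.707 scaled FPKM, and were also picked out after their values were seen. COL4A5, a basement membrane chain, had levels of 8.06 and 5.10, 4.27 and 2.08, and 3.34 and 1.10 scaled FPKM, lower in the resistant line of each pair. COL6A1 had changes of -0.17, -0.70 and -0.30. COL12A1, a fibril-associated chain, had 11.1 scaled FPKM in LnCaP and 0.190 in LnCaP-abl (58.3-fold lower, 40.2 to 88.1), the same pair in which FKBP10 differed most, and was under 0.5 in the other 4 libraries. edgeR called 0 of the 6 in either direction (smallest adjusted p = 0.591), with 1 lower at an unadjusted p under 0.05, and DESeq2 called 0. The median changes were -0.37, -0.45 and -0.05.

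Of 14 cross-linking and procollagen-processing genes, 6 were tested. edgeR and DESeq2 called 0, with 0 at an unadjusted p under 0.05, and the median changes were 0.35, 0.07 and 0.05. TLL1, a procollagen C-proteinase, had 1.59 scaled FPKM in LnCaP and 13.8 in LnCaP-abl, with changes of 0.03 and 0.09 in the other pairs. LOXL1, a lysyl oxidase-like enzyme that makes cross-links, had changes of 0.36, 0.12 and 0.70.

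Of 16 other genes of the FK506-binding protein family 13 were tested, edgeR called 0 (smallest adjusted p = 0.591) with 1 lower at an unadjusted p under 0.05, and DESeq2 called 0. Their median changes were -0.13, -0.03 and -0.25. FKBP15 had changes of 0.20, 0.03 and 0.36, and FKBP3, a nuclear member of the family, -0.18, -0.04 and -1.39. Of the other FK506-binding proteins of the endoplasmic reticulum, FKBP14, FKBP9 and FKBP7 were picked out after their values were seen. FKBP2 and FKBP11, also of that compartment, were tested but not followed pair by pair. Their DESeq2 log2 changes for the state were positive, at 0.24 (DESeq2 adjusted p = 0.969) and 1.03 (DESeq2 adjusted p = 0.470). FKBP14 had changes of -0.42, -0.03 and -0.25, FKBP9 of -1.16, 0.14 and -0.57, and FKBP7 of -0.31, 0.39 and -0.0027. Each change of FKBP14, FKBP9 and FKBP7 was smaller in size than that of FKBP10 in the same pair. The fall of FKBP10 was part of its choice.

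The higher PPIB, P4HA1 and PLOD2 of VCaP-CR stood beside higher endoplasmic reticulum chaperones. Of 22 chaperone and oxidoreductase genes, all tested, 21 were higher in VCaP-CR than in VCaP and 13 at least 2-fold, with a median change of 1.28, against 48.5% and 2.36% of all tested genes, while the medians for LnCaP-abl and LAPC4-CR were -0.10 and 0.14. HSPA5 (BiP), picked out after its values were seen, went from 109.4 to 350.8 scaled FPKM in the VCaP pair, with changes of -0.07 and 0.12 in the LnCaP and LAPC4 pairs. DNAJC3, a co-chaperone of HSPA5, had changes of 1.16, 1.54 and 0.82, and PDIA4 of 0.28, 1.62 and 0.39. Across the 3 pairs edgeR called 0 of the 22 (smallest adjusted p = 0.591), with 4 higher at an unadjusted p under 0.05, and DESeq2 called 1 higher. The part of this shift in the members' values was not tested. The base medium differed in the VCaP pair alone, and its part cannot be told apart from that of the state.

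The lower P4HA1 and PLOD2 of LAPC4-CR stood beside lower values of many hypoxia response genes. Of 22 tested, 19 were lower in LAPC4-CR than in LAPC4 and 4 at least 2-fold, against 51.7% and 5.27% of all tested genes. The list median was -0.49 there, -0.29 in the LnCaP pair and 0.24 in the VCaP pair, where 16 of 22 were higher (48.5% of all genes). ADM, CA9 and HK2 were picked out after their values were seen, and CA9 was under the filter and not among the 22. ADM, a vasoactive peptide, went from 10.9 to 1.02 scaled FPKM in the LAPC4 pair, and CA9, a carbonic anhydrase, from 2.46 to 0.193. HK2 was 1 of the 3 genes higher in LAPC4-CR, going from 14.1 to 24.8. In the LnCaP pair, where the list median was -0.29, P4HA1 was 1.85-fold higher and PLOD2 2.45-fold lower in the resistant line. DDIT4 had changes of 0.07, 0.48 and 0.04 and BNIP3L of -0.36, -0.11 and -0.49. edgeR called 0 of the 22 (smallest adjusted p = 0.651), with 0 at an unadjusted p under 0.05, and DESeq2 called 0. Whether these values and those of P4HA1 and PLOD2 are related was not tested.

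**Figure D5:**
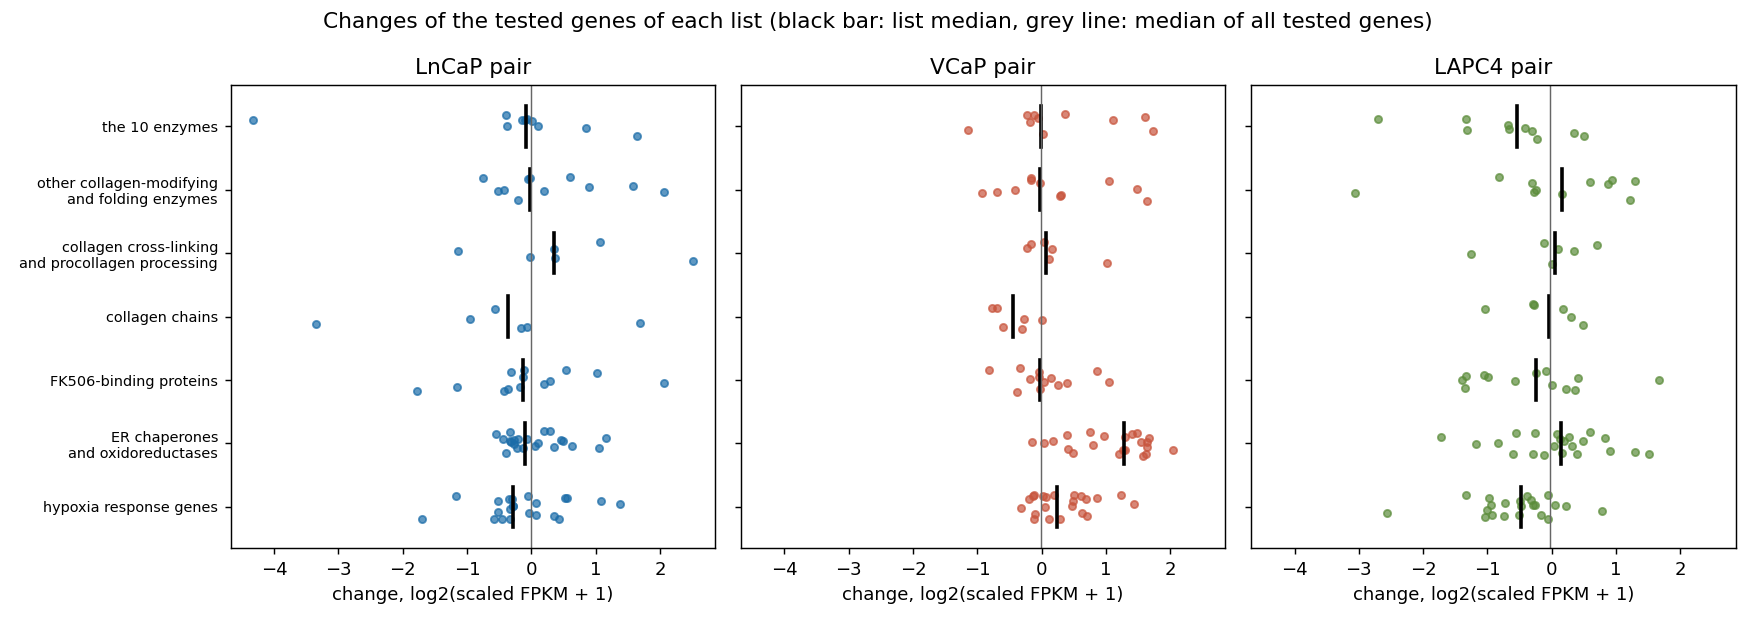
Change of every tested gene of each list within each pair on the log2(scaled FPKM + 1) scale, with 1 point per gene, black bars at list medians and a grey line at the median of all tested genes. The chaperones and oxidoreductases have a median of 1.28 in the VCaP pair, and the hypoxia response genes -0.49 in the LAPC4 pair.

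The libraries held the markers of prostate luminal epithelium: 10 of 10 reached 1 scaled FPKM in some library and 8 in all 6, with summed levels of 653.2 to 2275 in the sensitive and 404.2 to 1657 in the resistant lines. KLK3, an androgen receptor target picked out of the list after its values were seen, was lower in all 3 resistant lines, at 610.2 and 0.649, 327.5 and 19.1, and 108.3 and 2.02 scaled FPKM, and like FKBP10 it was highest among them in VCaP-CR. Of 13 fibroblast and stroma markers, 4 reached 1 scaled FPKM in some library and 0 in all, with sums of 8.52 to 11.3 in the sensitive and 5.37 to 53.9 in the resistant lines. The highest sum, in VCaP-CR, was carried by LUM, also picked out that way, at 50.2 scaled FPKM against 3.94 in VCaP. No marker of the list was at 0 counts in any library. Leukocyte marker sums were 1.47 to 3.05 and 1.66 to 3.02, and endothelial sums 0.774 to 2.31 and 0.606 to 1.63, in the sensitive and resistant lines.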

How the data were processed

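RNA was extracted with RNeasy and libraries were made with the SOLiD Total RNA-Seq kit, per the labels' protocols. The authors deposited, for each of 6 libraries, a count per gene and an FPKM value, with HTSeq and build hg18 named in the submitters' processing notes. The sources used here do not name the aligner, annotation release or strand setting. Every deposited FPKM was rebuilt from its count, the gene length and the library total within 1%. Of 51698 entries, 8764 of small RNA or mitochondrial classes were left out, and 48 symbols summed several entries, which left 42886. FPKM values were divided by a median-of-ratios factor (0.847 to 1.109) over 11599 genes with at least 1 FPKM in all libraries. Genes averaging 1 scaled FPKM or more were tested (16230, of which 11341 protein-coding).

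Changes are resistant minus sensitive on log2(scaled FPKM + 1), which understates the change of low genes. Folds are ratios of scaled FPKM with exact 95% binomial counting intervals, and levels have exact Poisson intervals; both cover counting error only. Deposited counts were tested with edgeR 4.0.16 (TMM, quasi-likelihood, lineage and state as terms, Benjamini-Hochberg adjustment over all genes, R 4.3.3), with DESeq2 1.42.0 and limma 3.58.1 as alternatives. Nothing says that lines were cultured more than once, so p-values measure only the spread between these libraries. Resistant and sensitive lines were paired by the parental line in their names. Deviations from the mean of each state correlated at 0.464, 0.734 and 0.593 between the 2 libraries of a parental line. Between parental lines they correlated at -0.478 to -0.06. The deviations of a state cancel over its lines for every gene. Positive values within parental lines therefore force negative ones between them on balance. On counts simulated over 16230 genes, the lineage test recovered 78% of genes changed 4-fold and 100% of those changed 16-fold, and the state test 83% and 100%. The simulation gave all genes the same dispersion (0.121) and changed only genes with higher counts. Each changed gene had the same fold in every changed library. These shares therefore do not hold for genes whose change differs between pairs, or for low genes.

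The members and lists were chosen with earlier results of these data known. Named genes are the 10 members, the 5 protein-coding genes most correlated with FKBP10, its 3 nearest protein-coding genes on each side, and, per list, any called by edgeR, the 2 highest and the 2 lowest mean changes of 1 sign in all pairs and, for collagen chains, the 3 highest levels; other names are marked as picked out after their values were seen. Promoters are the 250 bases before the RefSeq gene start. Other settings tried were 2 pseudocounts, 3 scalings, 2 filters on low values, protein-coding genes alone, each library or pair left out, no state term, no line block, and counts in place of FPKM for shares.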

Additional observations from a re-analysis of the deposited data

Results flagged for a closer look

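PLOD2 and P4HA1 were each at least 2-fold higher in the resistant line of the VCaP pair and at least 2-fold lower in that of the LAPC4 pair. The changes differed by 3.06 on the log2(scaled FPKM + 1) scale for PLOD2 and by 2.92 for P4HA1, with 1 library per line, so the difference between pairs was not tested. With a pseudocount of 5 the PLOD2 changes were 0.74 and -0.45, each under 2-fold, and the P4HA1 changes 1.26 and -1.21.

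Only genes named in the text were searched for such opposite changes. EGLN3 and MANF are named in this section alone, and the number of genes looked through is not given. The others found, also not tested and picked out after their values were seen, were LEPREL1, HK2, EGLN3 and MANF. The change of LEPREL1, a prolyl 3-hydroxylase, in the LnCaP pair exceeded that in the LAPC4 pair by 4.65. For HK2, a hexokinase, the LnCaP change less the VCaP change was -3.14. The change of EGLN3, an oxygen-sensing prolyl hydroxylase, in the LnCaP pair exceeded that in the LAPC4 pair by 2.39. The change of MANF, a secreted factor of the endoplasmic reticulum stress response, in the VCaP pair exceeded that in the LAPC4 pair by 3.23.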

How the results depend on the processing

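With a replicate block for the line, edgeR called 0 genes higher and 0 lower for the state, and with no replicate block 0 and 0. Without any filter on low values it called 95 and 58, and DESeq2 82 and 55. Leaving out a pair gave 0 to 13 higher and 1 to 20 lower, the most without the VCaP pair.

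For lineage, the 2066 genes called became 4898 without a filter, 1146 at a mean of at least 5 scaled FPKM, 1294 with protein-coding genes alone and 3974 with DESeq2, and 944 to 3580 with 1 library left out, the fewest without VCaP-CR and the most without LnCaP. The 2 members called became 4 without a filter, 1 at a mean of at least 5, 3 with DESeq2, 1 with limma and 0 to 4 with 1 library left out. DESeq2 called 2435 genes and 2 members for VCaP against LnCaP, 1610 and 1 for LAPC4 against LnCaP, and 3311 and 5 for LAPC4 against VCaP, where edgeR called 970 and 0, 505 and 0, and 2044 and 2. With 1 library left out these were 317 to 1692 and 0 to 2, 425 to 979 and 0 to 1, and 532 to 3430 and 0 to 4; a lone library of a lineage is assumed to vary like the others. Over the alternatives, the adjusted p ran from 6.49e-05 to 0.178 for PLOD1 from 0.000157 to 0.129 for P4HA2 and from 0.00148 to 0.536 for FKBP10.

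Of the members' 30 changes within pairs, 28 to 30 kept their sign and 26 to 30 their side of 2-fold under 5 other scalings and pseudocounts. With a pseudocount of 5, 4 changes fell under 2-fold: SERPINH1 in the LnCaP pair (0.59), FKBP10 in the VCaP pair (-0.91) and PLOD2 in the VCaP (0.74) and LAPC4 (-0.45) pairs. This left 0 members at least 2-fold higher in LnCaP-abl and 0 lower in VCaP-CR. TMM factors moved the median of all genes to 0.0856, 0.08 and 0.125 for LnCaP-abl, VCaP-CR and LAPC4-CR, and turned PLOD3 in the LnCaP pair to 0.03 and P4HA2 in the VCaP pair to 0.0052. Scaling over protein-coding genes turned PLOD1 and LEPRE1 in the LnCaP pair to -0.0005 and -0.07. The FKBP10 change ranged from -4.94 to -2.92, -1.21 to -0.91 and -3.75 to -1.25 in the same order.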

Other observations

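Genes of glucose use and of the wider endoplasmic reticulum were picked out after their values were seen. LDHA, which makes lactate, had 78.7 scaled FPKM in LnCaP against 34.3 in LnCaP-abl, 42.2 in VCaP against 68.7 in VCaP-CR, and 105.5 in LAPC4 against 54.3 in LAPC4-CR. PDK1, which restrains pyruvate entry into the citric acid cycle, had changes of -0.52, 1.24 and -0.39. HSP90B1, a chaperone of the endoplasmic reticulum, had changes of -0.26, 1.57 and 0.91. FKBP1A, the cytosolic FKBP12, was 4.35-fold higher in LnCaP-abl than in LnCaP (3.91 to 4.84), and TMEM38B, an ion channel of the endoplasmic reticulum, was 4.43-fold higher there (4.01 to 4.89), with changes under 2-fold in the other pairs. Each is a comparison of 1 library with 1 library.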
